A study of Mus musculus with 68 samples.

Results

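The data described here are 4 RNA-seq libraries of the inner cell mass (ICM) of mouse blastocysts, 2 from embryos injected with a morpholino against Max (Max MO) and 2 from control embryos. They were chosen by their titles from the 68 libraries of the series. All 4 came from fertilized zygotes, which the study's methods take from matings of C57BL/6j mice, that were injected, cultured to the blastocyst and divided into ICM and trophectoderm (TE) with needles, by the position and look of the cells, with 10 blastomeres per Smart-seq2 reaction on polyadenylated RNA. The Max MO group carries the label of a morpholino targeted at Max. The control group carries the label untreated, while the description of the injections names a random control morpholino of 25 bases and no uninjected group. The legend of the study's plot of these samples puts the control oligonucleotide at a higher concentration than Max MO and calls the libraries of a group biological replicates. The 4 TE libraries of the Max MO and control embryos and the 2 ICM libraries with Mcrs1 MO are used for comparison. The 2 TE libraries with Mcrs1 MO enter the fit, the values on transcript length and the values of Max. A morpholino blocks the translation or the splicing of its target and does not remove the gene, so the RNA level of the target need not follow the loss of its protein. The cells sampled were those of embryos that had formed a blastocyst.

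MAX is the small basic helix-loop-helix leucine zipper protein with which MYC, MYCN and MYCL must pair to bind DNA at E-boxes, the best known of which has the letters CACGTG. The same protein pairs with MXD proteins, MNT and MGA, which repress. MYC with MAX is known for driving the genes of ribosome assembly, nucleotide supply and growth, and MGA with MAX sits in a Polycomb complex, PRC1.6, that keeps germline genes silent in embryonic stem cells. In the blastocyst the ICM divides into epiblast, marked by NANOG, and primitive endoderm, marked by GATA6, GATA4 and SOX17, and FGF signalling is known to direct that choice.

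Each table gave a TPM, a transcript level scaled to length and to the library's total, for 24421 reference genes. The ratio of coverage to FPKM, which stands for the aligned bases of a library on a fixed scale, was 1.81 and 2.32 in the control ICM and 1.98 and 2.34 in the Max MO ICM, so depth did not separate the groups. Between 9934 and 10542 genes per library reached 1 TPM. The reference genes held 87.0% and 85.5% of the TPM of the assembled loci in the control ICM against 93.6% and 94.4% in the Max MO ICM. The tables hold no read counts, and a gene listed at 0 may be a missed gene.

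The 2 control libraries of the ICM differed from each other in cell type markers. Over 25 TE markers, the summed TPM was 22918 in control replicate 1 and 1216 in control replicate 2, against 4988 and 9340 in the Max MO ICM and between 28149 and 30317 in the 4 TE libraries. Cdx2, the factor that defines the TE, was at 57.7 TPM in control replicate 1 and 0.222 in control replicate 2, and at 3.25 and 3.77 in the Max MO libraries. Krt18, a keratin of the TE, was at 10274, 108, 1097 and 2572 TPM in the same order. Thus control replicate 1 resembled a TE library in these markers, and the Max MO libraries lay between the controls. Control replicate 2 held 14 of 22 oocyte and maternal genes at 1 TPM or more, against 4 in control replicate 1 and 7 and 5 in the Max MO libraries. Of 16 cumulus cell markers, 1 or 2 reached 1 TPM in each ICM library. For these reasons the counts of gene groups are also given without control replicate 1 and without control replicate 2. In such bulk samples fewer cells of a type and less RNA per cell cannot be told apart.

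**Figure D1:**
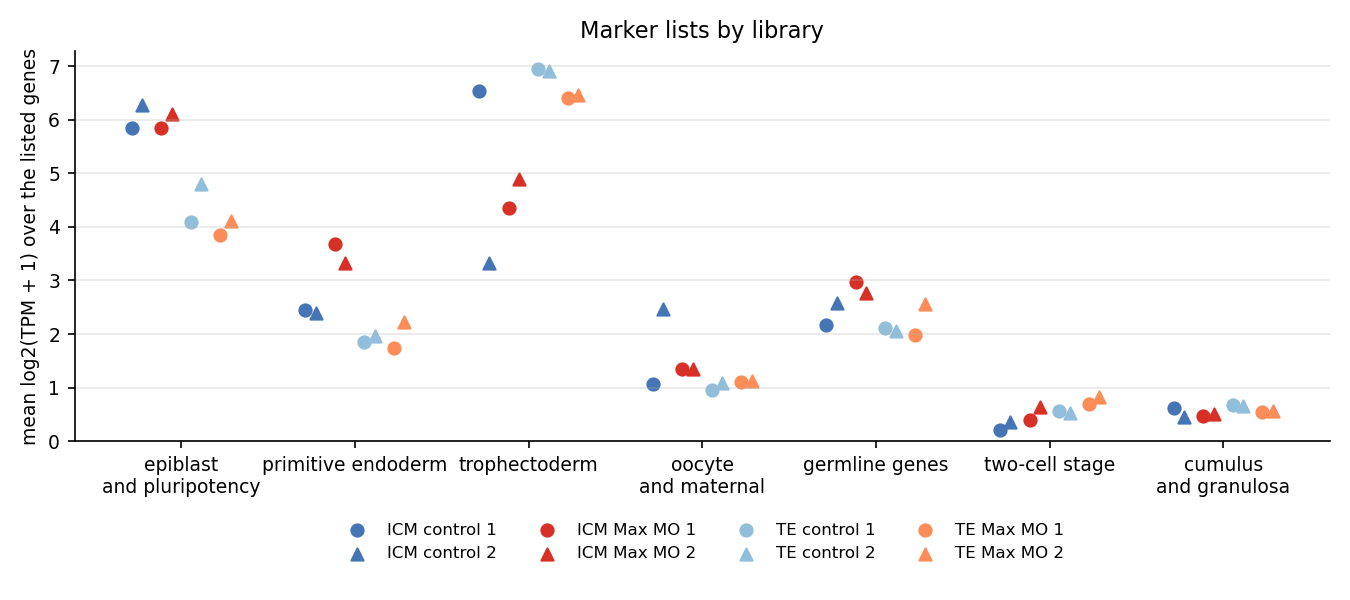
Mean log2(TPM + 1) over the genes of 7 marker lists in the 4 ICM and 4 TE libraries of control and Max MO embryos, 1 point per library. In the TE list control replicate 1 of the ICM sits near the TE libraries and control replicate 2 lowest, and in the primitive endoderm list both Max MO libraries of the ICM lie above both controls.

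Max, on the minus strand of chromosome 12 of mm10 (chr12:76937269-76962248), was at 38.0 and 8.42 TPM in the control ICM, while the Max MO ICM had 6.82 and 0.443 TPM. The groups did not overlap, but the lower control and the higher Max MO library lay close together. On the log2(TPM + 1) scale they differed by -2.51, with a standard error of 0.80 (limma adjusted p = 0.0397). It was -1.49 without control replicate 1 (limma adjusted p = 0.18) and -1.29 without Max MO replicate 2 (limma adjusted p = 0.281). Leaving out any of the 8 libraries of the other groups left the value as it was and put its adjusted p in limma between 0.0538 and 0.06, so the call held in 2 of 12 such fits. The TE controls had 34.5 and 28.5 TPM of Max and the TE with Max MO had 16.3 and 8.68 TPM, which did not pass (limma adjusted p = 0.39). In the ICM with Mcrs1 MO, a morpholino to another gene, it was at 14.4 and 9.25 TPM, between the 2 ICM controls. Max MO minus Mcrs1 MO was -1.90 for Max in the ICM and did not pass (limma adjusted p = 0.222). In the TE with Mcrs1 MO it was at 17.6 and 15.7 TPM, below both TE controls. A lower level of Max RNA in the TE was thus not particular to Max MO.

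Of 11219 genes tested by limma over the 12 morpholino libraries, 970 rose with Max MO in the ICM and 1689 fell at least 2-fold with an adjusted p under 0.05, which is 8.65% and 15.1% of the genes. These shares are the background for the counts of gene groups below. The median difference of all genes was -0.21 on the log2(TPM + 1) scale, or -0.32 with TPM rescaled over the annotated genes, and values below are not corrected for it. Without control replicate 1 the shares were 12.5% higher and 17.3% lower, and without control replicate 2 they were 11.0% and 18.6%. After quantile normalization, which sets the median difference to -0.03, 1134 genes rose and 1021 fell, so the excess of falls did not hold under that scaling. With TPM rescaled over the annotated genes 809 rose and 1974 fell. With the 4 ICM libraries alone, 0 genes passed and 2814 had an unadjusted p under 0.05, and all calls here borrow the spread of the other libraries.

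The difference followed transcript length. Among the fifth of genes with the shortest transcripts, up to 1705 bases, 24.1% rose and 3.10% fell, with a median difference of 0.74. In the next bins the median was 0.11, -0.29 and -0.62, and among genes with transcripts of 4853 bases or more 1.48% rose and 32.0% fell, with a median of -1.06. The order was seen in each library: the median level of the shortest bin exceeded that of the longest by 0.68 and 0.80 on the log2(TPM + 1) scale in the control ICM and by 2.42 and 2.54 in the Max MO ICM. The shortest bin held 27.3% and 28.4% of the TPM of the tested genes in the controls and 40.9% and 41.4% with Max MO. In the TE the trend had the same direction and less slope, with medians from 0.29 down to -0.60, and the controls there stood at 0.63 and 0.83 against 1.6 and 1.58 with Max MO. In the Mcrs1 MO ICM the value was 1.72 and 1.74, and in the Mcrs1 MO TE it was 1.81 and 1.75. In both tissues the libraries of either morpholino thus lay above the controls. The shift was therefore not particular to Max MO, and its cause was not tested. A short-to-long difference that moves with treatment in this way bears on each gene group whose members are mostly short or mostly long, and its part in their counts was not tested beyond the values given. When the trend on length was removed in each library, 715 genes rose (6.37%) and 604 fell (5.38%). Of the calls of the main test, 445 of the rises and 530 of the falls were also made after that step.

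**Figure D2:**
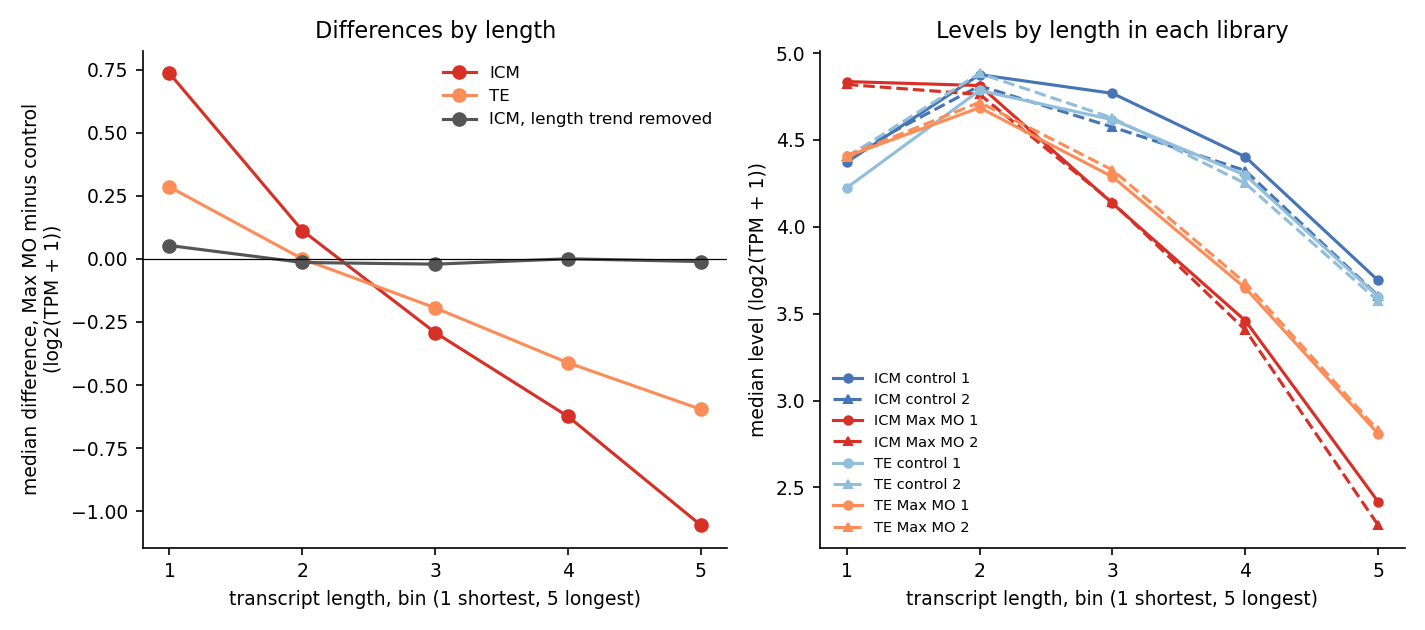
Left, median difference between Max MO and control on the log2(TPM + 1) scale in 5 bins of transcript length for the ICM, the TE and the ICM after removal of the length trend. Right, median log2(TPM + 1) of the same bins in each of the 8 libraries. The lines of the Max MO libraries fall more steeply with length than those of the controls, most in the ICM.

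A stricter set was formed from the genes called the same way in 7 fits: the main test, the 4 fits that each left out an ICM library of control or Max MO, the length-corrected fit and the quantile-normalized fit. It held 198 rises (1.76%) and 354 falls (3.16%). Genes of this set are named below where they belong to a listed group.

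Genes of the primitive endoderm, the layer that lines the cavity and forms yolk sac, gave more rises than falls. Of 25 tested members 4 rose and 1 fell, with a median difference of 1.25 against -0.21 for all genes. The mean log2(TPM + 1) over the 30 listed genes was 2.45 and 2.40 in the controls and 3.68 and 3.33 with Max MO, and 16 and 17 genes reached 1 TPM against 24 and 23. The summed TPM of the list did not separate the groups, with 2438 and 2717 against 1576 and 2447. With Mcrs1 MO the mean was 3.65 and 3.93, also above both controls. Sox17 was at 0 and 0.133 TPM in the controls and at 178 and 32.5 TPM with Max MO, a difference of 6.18 on the log2(TPM + 1) scale (standard error 1.26, limma adjusted p = 0.00609). The groups were far apart, while the 2 Max MO libraries themselves differed by several fold. Gata4, which like Sox17 marks later primitive endoderm, was at 0 and 0.0808 TPM in the controls and at 26.1 and 2.52 with Max MO (limma adjusted p = 0.0166). Srgn, which encodes a secretory granule proteoglycan, was at 1.69 and 0 TPM against 11.5 and 22 (limma adjusted p = 0.0088). Cited1, a transcriptional coregulator, was at 0 and 1.46 TPM against 11 and 17 and passed in all 7 fits (limma adjusted p = 0.00353). In the TE, Cited1 differed by 3.65 on the log2(TPM + 1) scale.

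Not every primitive endoderm gene followed. Gata6, which acts earliest in this lineage, was at 30.5 and 21.8 TPM in the controls and 31.9 and 28.7 with Max MO, with a difference of 0.22 (limma adjusted p = 0.62). Pdgfra, a receptor of the lineage, was at 5.29 and 12.9 TPM against 27.6 and 12.8 and did not pass (limma adjusted p = 0.496). The laminin genes Lama1, Lamb1 and Lamc1, whose proteins form basement membrane, differed by 1.29, -0.13 and 0.69 and did not pass. Lrp2, an endocytic receptor with a long transcript, fell from 21.8 and 5.84 TPM to 2.83 and 1.78 (limma adjusted p = 0.0173), and its difference went from -1.94 to -0.50 after removal of the length trend. With the trend removed 7 members rose and 0 fell, and without control replicate 1 or 2 the count was 7 rises with 1 or 2 falls. Without Max MO replicate 1, the library with more Sox17, 2 rose and 1 fell.

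Epiblast and pluripotency genes moved in both directions. Of 23 tested members 2 rose, 4 fell and 17 did not pass, with a median of -0.24, shares close to those of all genes. Without control replicate 1 the count was the same, and without control replicate 2 it was 4 rises and 4 falls. Dppa3, a maternal factor that protects DNA methylation in the zygote, was at 2252 and 3380 TPM in the controls and at 8924 and 12869 with Max MO, a difference of 1.96 (standard error 0.26, limma adjusted p = 0.00105). Dppa5a, an RNA-binding protein of pluripotent cells, was at 3530 and 4071 TPM against 10116 and 10574 (difference 1.45, limma adjusted p = 0.00039). Both transcripts are short, and after removal of the length trend the differences were 0.89 and 0.18. Falls were seen for 4 transcription factors of naive pluripotency. Tfcp2l1 went from 126 and 188 TPM to 44.3 and 38.3, Tbx3 from 77.7 and 123 to 20.7 and 22.9, Nr5a2 from 26.4 and 42.5 to 2.83 and 12.8, and Sall4 from 404 and 286 to 140 and 115. Their differences were -1.88, -2.12, -2.25 and -1.42, and -0.67, -1.28, -1.46 and -0.56 with the length trend removed, where none of the 23 members passed. Of the core factors, Pou5f1 was at 153 and 230 TPM against 318 and 280 (limma adjusted p = 0.0555), Nanog at 561 and 639 against 224 and 284 (limma adjusted p = 0.087) and Sox2 at 5.12 and 1.16 against 0.886 and 2.62 (limma adjusted p = 0.651). Nanog was lower and Pou5f1 higher in both Max MO libraries than in both controls, and neither passed.

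The TE markers gave no stable count. Of 23 tested members 0 rose and 3 fell with all libraries, 10 rose and 3 fell without control replicate 1, and 0 rose and 17 fell without control replicate 2. The 3 falls were Tfap2c, a transcription factor, Aqp3, a water and glycerol channel, and Atp1b1, a subunit of the sodium pump that fills the cavity. Tfap2c was at 249 and 268 TPM in the controls and 52.2 and 75.2 with Max MO (difference -2.03, standard error 0.25, limma adjusted p = 0.000914), alike in both controls although these differ in other TE markers. Aqp3 was at 181 and 137 TPM against 51.6 and 71.4. Tfap2c and Aqp3 passed in all 7 fits. In the TE Tfap2c differed by -1.72 and Aqp3 by -1.92. With Mcrs1 MO in the ICM Tfap2c was at 65.6 and 66.2 TPM, so its fall was not particular to Max MO. Aqp3 was at 125 and 135 TPM there.

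**Figure D3:**
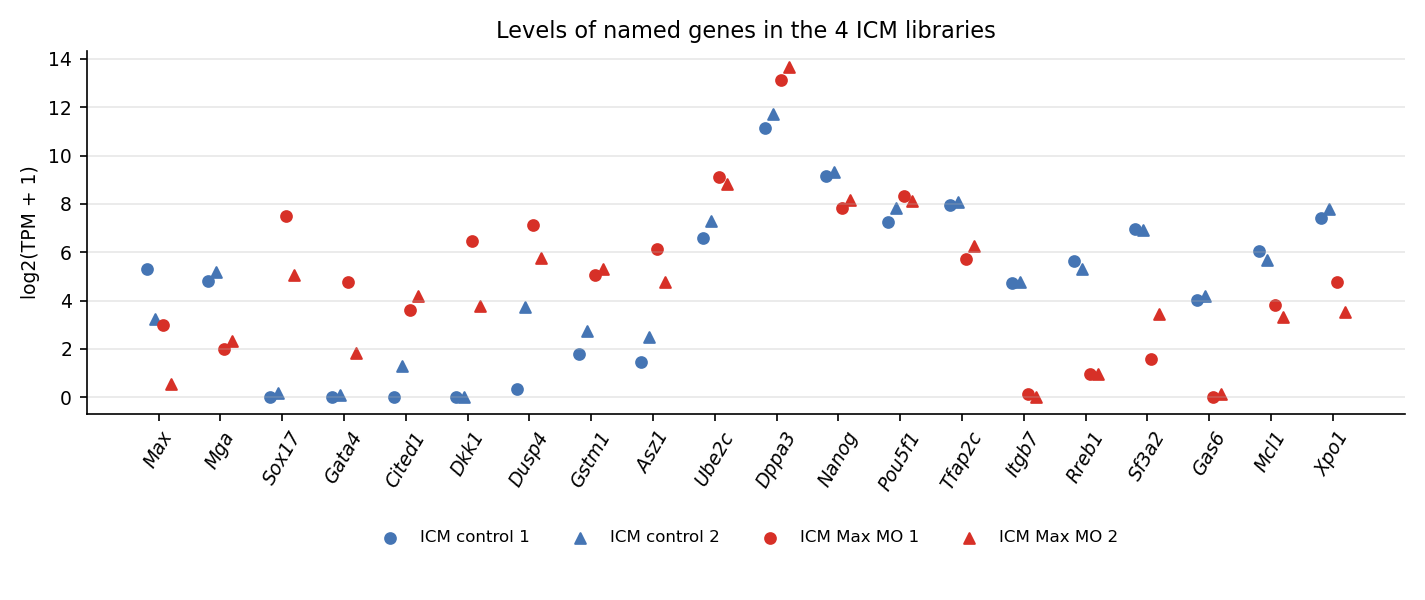
Levels of 20 genes on the log2(TPM + 1) scale in the 2 control (blue) and 2 Max MO (red) libraries of the ICM, with circles for replicate 1 and triangles for replicate 2. Sox17, Gata4 and Dkk1 lie at or near 0 in both controls, and Itgb7 and Gas6 at or near 0 with Max MO.

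Of the partners of MAX, only Mga passed among the 11 tested members of the MYC-MAX-MXD network beside Max itself. Mga, on chromosome 2 of mm10 (chr2:119897228-119969581), was at 26.9 and 34.9 TPM in the controls and at 2.97 and 4.00 with Max MO, a difference of -2.83 (standard error 0.43, limma adjusted p = 0.00169). The groups were far apart and the replicates close. Its transcript is long, and the difference was -1.43 with the length trend removed, where it did not pass. Mga was at 9.52 and 7.20 TPM with Mcrs1 MO in the ICM and at 5.97 and 6.10 TPM against 14.5 and 12.7 in the TE. Myc was at 8.96 and 19.6 TPM in the controls and 12.6 and 29.3 with Max MO (limma adjusted p = 0.505). Mycn was at 111 and 0.832 TPM in the 2 controls and at 14.5 and 28.2 with Max MO, so the spread between the controls exceeded any difference (limma adjusted p = 0.787). Mxd3, Mxd4, Mxi1, Mnt, Mycl, Mlx and Mlxip did not pass, with differences between -0.72 and 1.24. Of 14 tested members of PRC1.6, Mga and Max were the 2 that passed. L3mbtl2, a chromatin reader of the complex, differed by -0.96 (limma adjusted p = 0.0524), Cbx3, a heterochromatin protein, by -0.85, under the 2-fold limit (limma adjusted p = 0.00537), Pcgf6, its defining Polycomb subunit, by 0.09, and E2f6, a repressor that binds DNA, by 1.31 (limma adjusted p = 0.323).

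Germline genes, among them known targets of PRC1.6, gave 3 rises and 0 falls among 21 tested members of 30 listed, with a median of 0.66. Asz1, which acts with piRNAs in germ cells, was at 1.71 and 4.55 TPM in the controls and at 68.7 and 25.9 with Max MO (difference 3.48, standard error 0.73, limma adjusted p = 0.00662). Dazl, an RNA-binding protein of germ cells, was at 0.153 and 1.52 TPM against 22.4 and 5.70 (limma adjusted p = 0.0198). Dmc1, the recombinase of meiosis, was at 0.683 and 7.77 TPM against 23.8 and 11.5 (limma adjusted p = 0.0356). With the length trend removed 2 rose, without control replicate 2 4 rose, without control replicate 1 1 rose and 1 fell, and without Max MO replicate 1 none passed. Several others were higher in both Max MO libraries and did not pass. Slc25a31, a germline ADP/ATP carrier, was at 0 and 0.683 TPM against 5.27 and 5.07 (limma adjusted p = 0.0826). Ddx4, the germ cell helicase, was at 1.36 and 7.01 TPM against 16.0 and 14.3 (limma adjusted p = 0.214). Rec8, the meiotic cohesin, had the opposite sign, with 19.2 and 39.9 TPM against 5.58 and 9.62 (limma adjusted p = 0.0545). With Mcrs1 MO in the ICM the 3 rising genes were also above both controls. Asz1 was at 53.8 and 31.02 TPM there, Dazl at 20.05 and 7.81 and Dmc1 at 16.9 and 11.9. Max MO minus Mcrs1 MO was 0.05, -0.12 and 0.21 on the log2(TPM + 1) scale, and none passed. Rec8 was the 1 tested member called higher with Max MO than with Mcrs1 MO (difference 2.91). The 3 rises were thus not particular to Max MO, and their cause was not tested.

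The promoters of these genes were read because MAX binds CACGTG. The lines show stretches upstream of the annotated start of 4 germline genes, 5′ to 3′ on the strand of the gene, from RefSeq on GRCm38.p6, with CACGTG in capitals. They are shown because these 4 genes hold the motif and differ in their change.
Slc25a31: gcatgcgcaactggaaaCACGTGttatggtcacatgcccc
Ddx4: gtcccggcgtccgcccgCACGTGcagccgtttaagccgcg
Sycp1: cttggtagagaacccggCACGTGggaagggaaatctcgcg
Stag3: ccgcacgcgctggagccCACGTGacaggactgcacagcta

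The stretch of Slc25a31 is chr3:40708761-40708800 on the plus strand and that of Ddx4 is chr13:112652317-112652356 on the minus strand. That of Sycp1 is chr3:102936172-102936211 on the minus strand and that of Stag3 is chr5:138280322-138280361 on the plus strand. The motif starts 93, 29, 94 and 170 bases before the start. The difference of Slc25a31 was 2.25, that of Ddx4 1.89, that of Sycp1, a protein of the synaptonemal complex, 1.18, and that of Stag3, a meiotic cohesin subunit, -0.68, and none of the 4 passed. A promoter was found for 24 listed germline genes, of which 14 held CACGTG between 250 bases before and 50 after a start. A gene with several starts counted if any of them held it. Of the 19 tested germline genes with a promoter 57.9% held it, against 12.2% of the 8402 tested genes with one. Of all 32851 promoters, counted singly and not by gene, 7.15% held it. Among the tested germline genes, the 11 with the motif had a median difference of 0.66 and 0 calls, and the 8 without it had a median of 1.19 and gave the 3 rises, Asz1, Dazl and Dmc1.

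Over all tested genes, 8402 were found in the promoter table. CACGTG, which reads the same on both strands, was in 12.2% of them, in 10.2% of the 738 that rose (95% Wilson interval from 8.18% to 12.6%) and in 13.6% of the 1270 that fell (11.8% to 15.6%). With the length trend removed the shares were 11.0% and 12.8%. Both intervals contain the share of all tested genes.

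Of 37 tested members of Nodal, BMP and Wnt signalling 1 rose and 7 fell. It was 2 rises and 5 falls without control replicate 1 and 1 rise and 7 falls without control replicate 2. Dkk1, a secreted Wnt inhibitor, was listed at 0 TPM in both controls and was at 86.5 and 12.7 with Max MO (limma adjusted p = 0.0032), and it passed in all 7 fits. Wnt6, a ligand, went from 34 and 21.1 TPM to 2.83 and 5.94 (difference -2.43) and also passed in all 7. Tcf7l2, the transcription factor of the Wnt pathway, went from 40.3 and 50.1 TPM to 2.62 and 12.1 (difference -2.74). Acvr2a, a receptor for activins, went from 17.7 and 10.4 TPM to 0.355 and 3.01. With Mcrs1 MO in the ICM Dkk1 was at 32.7 and 44.5 TPM, so its rise was not particular to Max MO. The falls of the main test were 18.9% of this group, near the 15.1% of all genes. With the length trend removed, this group held 1 rise and 1 fall.

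Dusp4, a phosphatase that switches off MAP kinases and is itself induced by them, was at 0.283 and 12.3 TPM in the controls and at 141 and 53.8 with Max MO, a difference of 4.42 (standard error 1.03, limma adjusted p = 0.0109). Of 32 tested members of FGF and MAPK signalling 1 rose, Dusp4, and 6 fell. The count was 5 rises and 7 falls without control replicate 1, 2 and 8 without control replicate 2, and 1 and 1 with the length trend removed. Frs2, the adaptor that joins FGF receptors to their pathway, went from 25.9 and 20.5 TPM to 2.82 and 2.87 (difference -2.64) and passed in all 7 fits. Braf, a kinase, went from 14.7 and 18.5 TPM to 1.40 and 1.77, and Sos1, an exchange factor for RAS, from 11.1 and 13.6 TPM to 0.826 and 1.78. Fgf4, the ligand made by the epiblast, was at 32.0 and 8.89 TPM against 15.4 and 13.2 (limma adjusted p = 0.818), and Fgfr2, a receptor, was at 26.3 and 1.07 TPM against 15.7 and 15.1 (limma adjusted p = 0.37). In both genes the 2 controls differed from each other more than the 2 Max MO libraries did.

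Of 23 tested Hippo pathway genes 7 fell and 0 rose, with a median of -1.20. Tead2, the DNA-binding partner of YAP, went from 26.4 and 40.3 TPM to 5.22 and 6.62 (difference -2.29) and passed in all 7 fits. Amotl2, which holds YAP at junctions, went from 46.2 and 117 TPM to 18.7 and 12.5, and the kinase gene Taok1 from 25.4 and 19.2 to 4.93 and 2.29. These transcripts are long, with a median of 4720 bases over the group, and with the length trend removed 2 members rose and 1 fell. Without control replicate 1 none rose and 5 fell, and without control replicate 2 the group had 3 rises and 11 falls.

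Junction and adhesion genes fell more often than all genes. Of 41 tested members 17 fell and 0 rose, with a median of -1.08. With the length trend removed 6 fell and 0 rose, 14.6% against 5.38% of all genes. The 6 were Cdh1, Jup, Ocln, Cgn, Pard6b and Itgb7, and each passed in all 7 fits. Itgb7, an integrin subunit, was at 25.5 and 26.1 TPM in the controls and at 0.101 and 0 with Max MO, a difference of -4.67 (standard error 0.54, limma adjusted p = 0.000704). Itgb7 differed by -0.60 in the TE (limma adjusted p = 0.584), where its controls were low, at 3.25 and 1.61 TPM. The difference between the tissues did not pass for Itgb7 (limma adjusted p = 0.146). Cdh1, the E-cadherin that holds blastomeres together, went from 144 and 78.4 TPM to 30.9 and 29.6 (difference -1.78, limma adjusted p = 0.00295). Ocln and Cgn are proteins of tight junctions. Ocln went from 51.9 and 103 TPM to 8.49 and 15.8, and Cgn from 199 and 87.1 to 24.9 and 36.8. Pard6b, of the apical polarity complex, went from 31.9 and 18.9 TPM to 5.15 and 2.88. For these genes the lower control was above both Max MO libraries. Control replicate 1, the library with TE markers, had more Cdh1, Cgn and Pard6b than control replicate 2 and less Ocln. Without it, 13 members of the group fell and 1 rose, and without control replicate 2 22 fell and 1 rose.

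Of 26 tested members of the Bcl2 family and caspases 0 rose and 5 fell, with a median of -0.64, a share near that of all genes. The count was 1 rise and 6 falls without control replicate 1, 2 and 5 without control replicate 2, and 0 and 3 with the length trend removed. Bcl2l1, which encodes the survival protein BCL-X, was at 115 and 51.1 TPM in the controls and at 8.81 and 1.53 with Max MO (difference -3.97, standard error 1.27, limma adjusted p = 0.0398), but the value was called in 2 of the 7 fits. Mcl1, another survival protein of this family, went from 65.0 and 50.5 TPM to 13.2 and 8.98 (difference -2.29, limma adjusted p = 0.00142) and was called in all 7. In the TE their differences were 0.00 and -0.41. Bcl2l1 was at 5.78 and 80.3 TPM in the TE controls and at 17.6 and 28.6 with Max MO, so its value there does not show an unchanged level. The difference between the tissues did not pass for either gene (limma adjusted p = 0.379 and 0.186). Birc6 and Birc2, inhibitors of apoptosis, fell by 1.98 and by 1.49 on the log2(TPM + 1) scale. The transcript of Birc6 is long, and its difference was -0.53 with the length trend removed, where it did not pass. Of 29 tested p53 response genes 6 fell and 0 rose, among them Plk2, from 165 and 55.5 TPM to 22.9 and 7.52, and Ei24, from 95.1 and 69.6 to 12.4 and 9.84. The p53 count without control replicate 2 was 12 falls and without control replicate 1 it was 4 falls and 2 rises.

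The genes through which MYC and MAX are known to drive growth moved in both directions. Among 57 tested genes of the nucleolus and RNA polymerase I 4 rose and 12 fell, with a median of -0.15, and with the length trend removed 4 rose and 4 fell. Leaving out control replicate 1 gave 2 rises and 15 falls, and leaving out control replicate 2 gave 6 and 9. Heatr1, a processing factor, went from 17 and 65.3 TPM to 4.37 and 2.20 (difference -3.06), and Imp3, a short subunit of the processome, from 24.1 and 60.5 to 116 and 120 (difference 1.6). Ubtf and Rrn3, which start transcription by RNA polymerase I, passed in all 7 fits. Ubtf went from 132 and 187 TPM to 20.9 and 53.7 (difference -2.19) and Rrn3 from 164 and 187 to 52.1 and 38.7 (difference -1.94). Rrp12, a ribosome export factor, went from 34.4 and 36.6 TPM to 8.12 and 6.32 and did so as well.

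Of 32 tested genes of nucleotide and one-carbon synthesis 5 rose and 7 fell, with 3 rises and 10 falls without control replicate 1 and 7 and 7 without control replicate 2. Those in all 7 fits were 4 falls and 3 rises. Impdh1, which makes guanine nucleotides, went from 134 and 274 TPM to 14.6 and 26 (difference -3.23, standard error 0.52, limma adjusted p = 0.00215), Pfas, of purine synthesis, from 64.5 and 84.1 to 15.9 and 12.2, and Adss and Mthfd1 fell by 1.19 and by 1.45 on the log2(TPM + 1) scale. Dut, Tk1 and Nme1, of deoxynucleotide supply and exchange, rose by 1.37, 1.19 and 1.25. Cad, which starts pyrimidine synthesis and is a classical MYC target, went from 23.3 and 39.0 TPM to 2.19 and 5.39 (difference -2.79, limma adjusted p = 0.00658). Its transcript is long, and with the length trend removed the difference was -1.70 and did not pass (limma adjusted p = 0.0797). Cad was at 7.96 and 5.21 TPM with Mcrs1 MO in the ICM, also below both controls. With the length trend removed 3 members of the group rose and 4 fell.

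Of 30 tested genes of amino acid and polyamine supply 5 fell and 0 rose, and 5 also fell with control replicate 1 or control replicate 2 left out, with 1 rise without control replicate 1. In the main test the falls were 16.7% of this group, near the 15.1% of all genes. Amd1, which commits methionine to polyamines, went from 406 and 324 TPM to 75.3 and 68.8 (difference -2.32, limma adjusted p = 0.000379), and Azin1, which protects ornithine decarboxylase, from 129 and 157 to 28.6 and 33.8 (difference -2.16). Both passed in all 7 fits.

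Of 43 tested translation factors 3 rose and 6 fell, with a median of -0.10, and the count was the same with the length trend removed. It was 2 rises and 7 falls without control replicate 1 and 4 and 6 without control replicate 2. Eif4g1 and Eif4g2, scaffolds of initiation, went from 109 and 174 TPM to 20.8 and 19.3 and from 425 and 416 TPM to 96.9 and 78.5, and with Eif4a2 and Eif2s3x they passed in all 7 fits. Eif3g and Eif2b2 rose by 1.31 and by 1.25. Of 23 tested cytosolic tRNA synthetases and their cofactors 2 rose and 2 fell, with 1 and 1 without control replicate 1 and 2 and 4 without control replicate 2. Vars, the valine enzyme, went from 146 and 103 TPM to 17.7 and 26.2, and Aimp1, a scaffold of the synthetase complex, from 112 and 125 to 273 and 246, and both were called in all 7 fits.

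The proteasome, mitochondrial protein import and oxidative stress defence gave rises and no falls with all libraries. Of 38 tested proteasome genes 12 rose, with a median of 0.71, and 4 rose with the length trend removed. Without control replicate 1 it was 8 rises and without control replicate 2 it was 13, with 0 falls in either. Psme1 and Psme2, the subunits of the 11S activator, went from 32.1 and 70.6 TPM to 137 and 174 and from 44.1 and 57.4 to 165 and 171, and Psme1 passed in all 7 fits. Psmb3 and Psmb4, of the core particle, rose by 1.43 and by 1.23. Of 32 tested import genes 10 rose, with a median of 0.77, and 8 rose with the length trend removed, 25.0% against 6.37% of all genes. Timm8b, a chaperone of the intermembrane space, went from 24.5 and 46.7 TPM to 164 and 155 (difference 2.20, limma adjusted p = 0.000986). Timm17b and Pam16, of the inner membrane translocase and its motor, went from 40.2 and 59.9 TPM to 149 and 134 and from 32.4 and 34.1 to 111 and 91.1, and were called in all 7 fits. With any of the 4 ICM libraries left out the import genes gave 9 to 11 rises, and 1 fall where the library left out was a control.

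Of 38 tested oxidative defence genes 8 rose, with a median of 0.50, and 3 rose with the length trend removed. The count was 11 rises and 2 falls without control replicate 1 and 9 rises and 1 fall without control replicate 2. Gstm1, a glutathione transferase, went from 2.43 and 5.76 TPM to 32.0 and 38.1 (difference 2.90, standard error 0.52, limma adjusted p = 0.00336) and was called in all 7 fits. Mt2, a metallothionein, went from 89.2 and 36.8 TPM to 295 and 293. Mgst3, a membrane glutathione transferase, was at 84.6 and 14.0 TPM in the controls and at 171 and 263 with Max MO. Of 31 tested genes of the ER and integrated stress responses 2 rose and 5 fell, with 6 and 4 without control replicate 1 and 2 and 6 without control replicate 2. Chac1, a target of ATF4 that degrades glutathione, was listed at 0 TPM in both controls and was at 6.55 and 14.0 with Max MO (limma adjusted p = 0.0144). Sesn2, also a stress target, fell from 106 and 70.5 TPM to 12 and 13.6 (difference -2.66). Members of this list thus moved in opposite directions. Of 38 tested chaperones 6 rose and 5 fell (4 and 4 without control replicate 1, 7 and 4 without control replicate 2), with Bag1 higher and Bag3 and Ptges3 lower in all 7 fits.

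**Figure D4:**
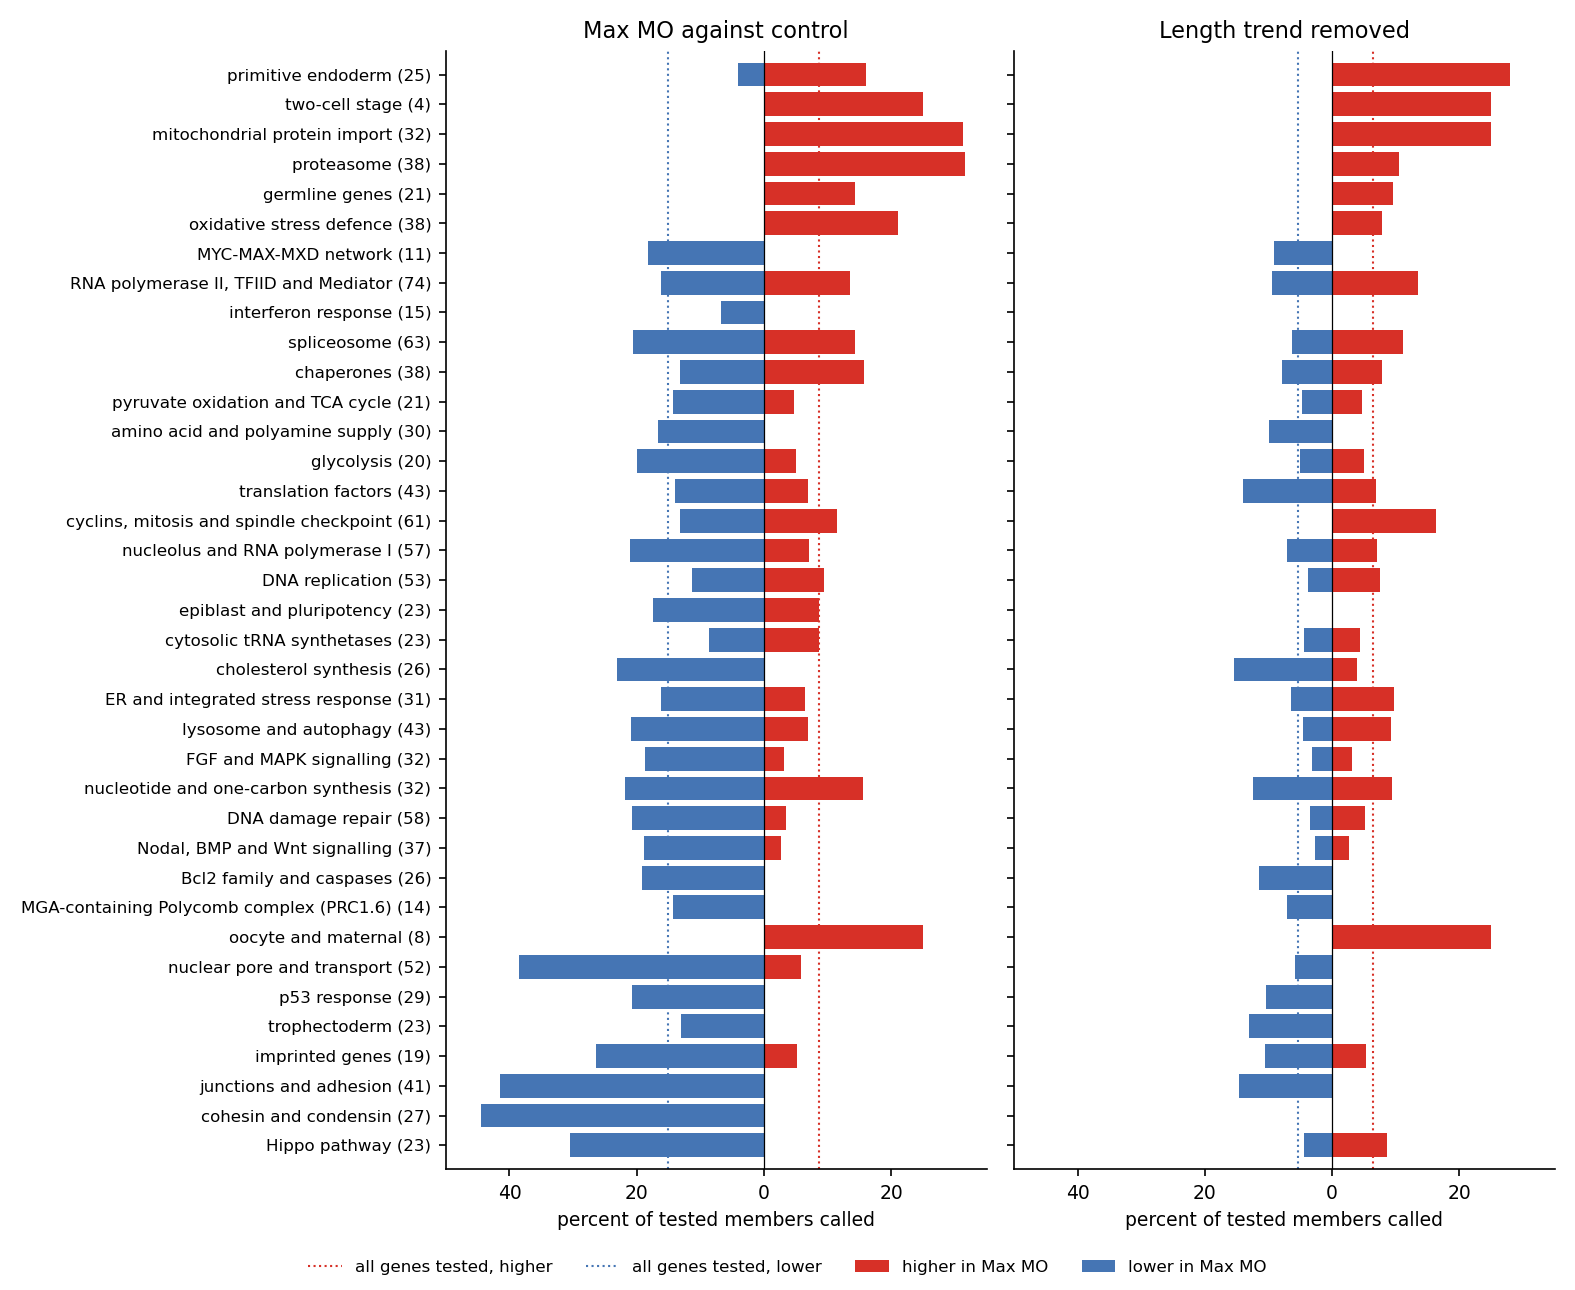
Share of the tested members of 37 gene lists that rose (red, to the right) or fell (blue, to the left) with Max MO in the ICM, by the main test on the left and with the length trend removed on the right. Numbers in parentheses are tested members, dotted lines are the shares of all genes tested, and lists are ordered by their median difference in the main test.

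Of 61 tested genes of cyclins, mitosis and the spindle checkpoint 7 rose and 8 fell, shares near those of all genes. It was 6 rises and 8 falls without control replicate 1 and 14 and 5 without control replicate 2, so the balance turned with the control. With the length trend removed 10 rose and 0 fell, 16.4% against 6.37% of all genes. Ube2c, which hands ubiquitin to the anaphase-promoting complex, went from 94.6 and 155 TPM to 559 and 446 (difference 2.03, standard error 0.24, limma adjusted p = 0.000743). Aurkb and Birc5, of the chromosomal passenger complex, went from 36.9 and 50.5 TPM to 106 and 99.3 and from 199 and 205 to 496 and 444. These 3 genes were called in all 7 fits. Espl1, the separase, and Anapc1, of the anaphase-promoting complex, fell by 2.21 and by 1.78 on the log2(TPM + 1) scale, were called in 2 of the 7 fits each and did not pass with the length trend removed.

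In cohesin and condensin, nuclear transport and DNA repair, groups of mostly long transcripts, the falls were largely absent after that step. Cohesin and condensin had 12 falls and 0 rises among 27 tested members with a median of -1.09, and 0 calls with the trend removed. The 12 falls and 0 rises were also the count with control replicate 1 or control replicate 2 left out. Nipbl, the cohesin loader, was at 22.5 and 19.5 TPM in the controls and at 4.2 and 2.40 with Max MO. Nuclear pore and transport had 20 falls and 3 rises among 52 members, and 3 falls and 0 rises with the trend removed. It had 22 falls and 4 rises without control replicate 1 and 17 and 3 without control replicate 2. The 3 falls after removal of the trend were Xpo1, Xpot and Ipo7, which carry proteins and tRNA through the pore, and all passed in all 7 fits. Xpo1, the main export receptor, went from 171 and 220 TPM to 26.5 and 10.6 (difference -3.45, standard error 0.35, limma adjusted p = 0.00039). DNA damage repair went from 2 rises and 12 falls among 58 to 3 rises and 2 falls (6 and 18 without control replicate 1, 3 and 12 without control replicate 2), with Ercc1 higher and Msh6 and Rif1 lower in all 7 fits. DNA replication had 5 rises and 6 falls among 53, but 2 and 11 without control replicate 1 and 9 and 5 without control replicate 2, so the balance turned with the control. Cdc7, the kinase that fires origins, went from 79.7 and 90.4 TPM to 17.7 and 16.3.

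Of 63 tested spliceosome genes 9 rose and 13 fell. The count was 8 and 16 without control replicate 1, 15 and 11 without control replicate 2, and 7 and 4 with the length trend removed, so the group had no stable direction. Small Sm proteins were among the rises, such as Snrpg, from 28.1 and 104 TPM to 288 and 202. Sf3a2, a subunit of the U2 particle, went from 123 and 121 TPM to 2.0 and 9.72 (difference -4.44, standard error 0.59, limma adjusted p = 0.00103), and in the TE its difference was -5.02. The difference of Sf3a2 was -4.53 with the length trend removed. Ddx23, a helicase of the U5 particle, went from 11.2 and 13.0 TPM to 0.205 and 0.176. Of 74 genes of RNA polymerase II, TFIID and Mediator 10 rose and 12 fell, with 9 and 16 without control replicate 1, 17 and 11 without control replicate 2, and 10 and 7 with the length trend removed. Polr2f, a small polymerase subunit, went from 44.7 and 57.2 TPM to 223 and 242, and the Mediator genes Med15 and Med25 went from 39.0 and 66.3 TPM to 11.2 and 8.66 and from 165 and 190 to 29.1 and 37.5.

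In metabolism, 1 of 20 tested glycolysis genes rose and 4 fell, and 1 rose and 1 fell with the length trend removed. The count was 2 and 3 without control replicate 1 and 1 and 4 without control replicate 2. Slc2a3, the glucose transporter that the embryo depends on, went from 524 and 114 TPM to 38.1 and 35.5 (difference -2.71, limma adjusted p = 0.00421) and passed in all 7 fits, although its 2 controls were far apart. Hk1, which traps glucose, and Pfkm, of the committed step, fell by 2.71 and by 2.07 on the log2(TPM + 1) scale, but were called in 3 and 2 of the 7 fits, and neither with the length trend removed nor after quantile normalization. Of 21 genes of pyruvate oxidation and the TCA cycle 1 rose and 3 fell, with 3 and 3 without control replicate 1 and 1 and 3 without control replicate 2. Those of the main test were Mpc2, a subunit of the pyruvate carrier, which rose by 1.18, and Ogdh, Dlat and Pdha1, of the dehydrogenase complexes, which fell by 1.86, by 1.27 and by 1.09. With the length trend removed 1 member rose and 1 fell. Ogdh, Dlat and Pdha1 did not pass there, with differences of -1.23, -0.67 and -0.89. Of 26 tested cholesterol genes 6 fell and 0 rose, with 4 falls and 1 rise after the length trend was removed. It was 4 falls and 3 rises without control replicate 1 and 7 and 0 without control replicate 2. Hmgcs1, of cholesterol synthesis, went from 104 and 61.5 TPM to 26.4 and 20.7.

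Of 43 tested lysosome and autophagy genes 3 rose and 9 fell, with 7 and 9 without control replicate 1 and 4 and 10 without control replicate 2. Ctsl, a cathepsin, went from 205 and 206 TPM to 554 and 577, while Atg9a, the lipid scramblase of autophagy, went from 78.6 and 52.6 TPM to 4.42 and 5.60 and Gaa, the lysosomal glucosidase, from 91.9 and 156 to 20.5 and 20.5. These 3 genes passed in all 7 fits. Of 19 tested imprinted genes 1 rose and 5 fell, with 3 and 6 without control replicate 1 and 1 and 8 without control replicate 2. Mest and Impact, expressed from the paternal copy, went from 20.3 and 18.5 TPM to 1.38 and 3.33 and from 36.6 and 53.1 TPM to 5.51 and 6.28, and both passed in all 7 fits. Mest differed by 0.01 in the TE, and the difference between the tissues did not pass. Of the 15 tested interferon genes, 1 fell, while without control replicate 2 1 rose and 0 fell. Of the 8 tested oocyte and maternal genes 2 rose, Ooep and Zp2. Ooep, of the subcortical maternal complex, went from 21.3 and 10.6 TPM to 74.8 and 79.3 and passed in all 7 fits. Without control replicate 1, 2 of the 8 rose and 4 fell. Of the 4 tested genes of the two-cell stage, Sp110, a nuclear body protein, rose by 1.44.

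Among the 12 rises and 12 falls that were largest by the rule for named genes, several belong to no list above. Maged2, a MAGE family member, was listed at 0 TPM in both controls and was at 39.3 and 34.9 with Max MO. Nefl, a neurofilament, was listed at 0 against 52.5 and 20.1 TPM, Bex4 at 0 against 23.2 and 23.1, Aldh1a1, a retinaldehyde dehydrogenase, at 0 against 45.3 and 9.64, Krt23, a keratin, at 0 against 41.0 and 9.06, and Bend5 at 0 against 21.9 and 17.1. These genes were off or missed in both controls and present in both Max MO libraries. They were also present in both Mcrs1 MO libraries of the ICM. Maged2 was at 35.1 and 18.9 TPM there, Nefl at 18.3 and 2.56, and Bex4 at 6.70 and 14.4. Aldh1a1 was at 7.57 and 8.81 TPM, Krt23 at 15.3 and 2.53, and Bend5 at 3.08 and 9.92. Flrt3, a membrane protein that binds FGF receptors, was at 4.93 and 0.142 TPM against 127 and 24.7, and Gstm7, a glutathione transferase, was at 0 and 0.197 TPM against 40.4 and 18.4. With Mcrs1 MO in the ICM Flrt3 was at 73.1 and 134 TPM and Gstm7 at 13.5 and 6.41. These rises were thus not particular to Max MO, and their cause was not tested. Among the falls, Rreb1, a zinc finger factor downstream of RAS, went from 48.1 and 38.6 TPM to 0.943 and 0.961 (difference -4.50, standard error 0.67, limma adjusted p = 0.00155). Gas6, the ligand of TAM receptors, went from 15.4 and 17.1 TPM to 0 and 0.0879. Irf2bpl went from 15.5 and 49.96 TPM to 0.409 and 0.367, and Csf2ra, the receptor for GM-CSF, from 32.6 and 11.6 to 0.425 and 0. Spag1 was at 9.53 and 17.5 TPM in the controls and listed at 0 in both Max MO libraries. Wdr62, a spindle pole protein, Agfg2, Cnga3, a channel subunit, and Mcm3ap, of mRNA export, fell by between 3.68 and 3.87 on the log2(TPM + 1) scale.

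The TE of the same kind of embryo gave a separate measure with its own controls. There, 117 genes rose (1.04%) and 163 fell (1.45%) with Max MO. Of the 970 genes that rose in the ICM, 84 rose in the TE and 0 fell, and 86.2% had a difference above 0, against 40.02% of all genes. Of the 1689 that fell in the ICM, 133 fell in the TE and 0 rose, and 91.2% were below 0, against 59.3% of all genes. The 84 shared rises were 8.66% of the ICM rises and 71.8% of the TE rises, and the 133 shared falls were 7.87% and 81.6%. The median difference of the ICM rises was 1.63 in the ICM and 0.67 in the TE, and that of the falls was -1.94 and -0.83. The trend on length had the same direction in both tissues. In a test of the difference between the tissues 0 genes passed in limma, with 1473 at an unadjusted p under 0.05. The number of genes passing rose when either ICM control was left out, which also takes that group out of the estimate of spread. The median difference between the tissues was -0.01 over all genes, 0.002 without control replicate 1 and -0.08 without control replicate 2.

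Against Mcrs1 MO in the ICM, which does not share libraries with Max MO, 35 genes were higher (0.312%) and 168 were lower (1.50%) with Max MO. Dppa3, at 8924 and 12869 TPM with Max MO, was among the higher genes, and Xpo1, Mest, Gas6, Ocln, Slc2a3 and Scd1, a desaturase, were among the lower. With the length trend removed 12 genes passed in all. Mcrs1 itself was at 218 and 242 TPM with Max MO and at 86.8 and 73.4 with Mcrs1 MO. Against the same controls, Mcrs1 MO in the ICM gave 547 rises and 584 falls. Some falls named above were seen there too. Eif4g1 was at 25.8 and 24.7 TPM, Impdh1 at 28.5 and 34.6, and Vars at 21.8 and 19.8. Sesn2 was at 6.14 and 16.1 TPM, Sf3a2 at 7.43 and 15.9, and Rreb1 at 2.11 and 9.63. Others were not, such as Plk2, at 223 and 101 TPM against 165 and 55.5 in the controls.

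The genes that moved were also read along the development of cloned embryos, in libraries that the comparison did not use. Between the ICM and the morula of somatic cell nuclear transfer embryos, the median difference was -0.15 over all tested genes, -0.21 over those that rose with Max MO and -0.004 over those that fell. Between the ICM and TE of those embryos it was -0.16, -0.21 and -0.16. Pearson's r between the Max MO difference and either axis was -0.03 and 0.002 across genes, which are not independent replicates.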

How the data were processed

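RNA of the ICM and TE was sequenced by Smart-seq2. According to the study's methods the authors trimmed the reads with Cutadapt (version 1.16 per the labels), mapped them to mm10 with HISAT2 and assembled them with StringTie. They deposited, for each gene, coverage signal, FPKM and TPM. The deposited TPM is treated as a signal on the scale of the assembled loci, since reference genes are listed beside those loci. Read counts were not used here, so no count test or counting interval is given. The deposited FPKM and coverage signal served only for depth.

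TPM was summed over the rows of each of 24421 symbols. log2(TPM + 1) was fitted with limma 3.58.1 in R 4.3.3 (trend) over 12 libraries in 6 groups, for the 11219 genes whose mean TPM reached 1. Calls needed a Benjamini-Hochberg adjusted p under 0.05 over all genes and a difference of at least 2-fold on that scale, which understates low genes. Libraries are 2 per group, and the p-values rest on a spread per gene that is pooled over the 6 groups. The 2 ICM controls had a correlation of 0.80 on that scale, against 0.94 to 0.97 for the pairs of the other groups. The pooled spread can therefore understate that of the ICM controls. On simulated data with 200 changed genes, limma called 61% of changes of 2.5 (log2) and 10 others. The simulation gave all groups the same spread and no trend on length. It therefore does not give the error rate of the calls reported here. Length came from GENCODE vM21, known for 99.3% of tested genes, and its trend was removed per library by lowess (span 0.3). Promoter sequences were RefSeq windows from 250 bases before to 50 after a start. Python 3.11.15 drew the figures.

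The members and the 38 gene lists were chosen with earlier results of these data known. Named genes were the 12 largest rises and 12 largest falls past the threshold with a mean TPM of at least 5 and no overlap, leaving out Gm and Rik models, microRNA, snoRNA and rRNA genes, up to 4 called members of each list, and every tested member of the network, PRC1.6 and lineage lists. Genes named because they passed in all 7 fits, members named beside them as uncalled and the genes against Mcrs1 MO were chosen after their values were seen. Replicate numbers were not used to pair the libraries in the main fit, and the labels do not say whether they do. The SCNT libraries entered as TPM only. Alternatives were another pseudocount, other filters on low TPM, rescaled and quantile-normalized TPM, fewer libraries in the fit, a replicate block, the largest row of each gene, removal of a trend on length or GC content, limma without its trend, and each library left out. A few genes that this rule names are not reported here.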

Additional observations from a re-analysis of the deposited data

How the results depend on the processing

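The deposited values have no counts, so edgeR and DESeq2 were not run. In the ICM, the 2659 genes called between Max MO and control became 1033 with the 6 ICM libraries, 0 with 4 ICM libraries and 1319 with the length trend removed, and between 1561 and 3351 with 1 library left out, the lowest without Max MO replicate 1 and the highest without control replicate 1. All other alternatives stayed within 1.5 times. Rises made up 36.5% of the calls, 29.1% with TPM rescaled over annotated genes, 52.6% with quantile normalization, 54.2% with the length trend removed, 53.3% with a trend on GC content removed, 48.6% with 6 ICM libraries and 41.9% without Max MO replicate 2. Leaving out a library that is 1 of its group removes that group from the estimate of spread, and the lone library is assumed to vary like the other groups.

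The difference of Max between Max MO and control was -2.51 and lost its call with all genes above 0 (-2.51), with 6 or 4 ICM libraries (-2.51), without the limma trend (-2.51), with quantile normalization (-2.13) and with the GC trend removed (-2.32). It also lost it in 10 of the 12 fits that left out 1 library, and ranged from -3.73 to -1.29 with 1 library left out. Its adjusted p in limma ranged from 0.00811 to 0.281 over the alternatives.

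The test of the difference between ICM and TE gave 0 genes, 1 with a pseudocount of 0.1, 45 with all genes above 0, and 0 to 506 with 1 library left out. Max MO against Mcrs1 MO in the ICM gave 203 genes, 121 with all genes above 0, 23 with quantile normalization, 0 with 6 ICM libraries, 12 with the length trend removed, 13 with the GC trend removed, 0 without the limma trend, and 0 to 843 with 1 library left out, the highest without control replicate 2. Max MO in the TE gave 280 genes, 170 with all genes above 0, 173 with quantile normalization, 145 and 453 with the length or GC trend removed, 37 without the limma trend, and 1 to 796 with 1 library left out, the lowest without TE control replicate 2 or either TE Max MO library. The cause of these changes was not tested.

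Between the bins of the shortest and longest genes, the share higher minus the share lower changed by 51.6 percentage points, by 36.5 with genomic span in place of transcript length, by 66.1 with genes of a mean TPM of at least 5 and by 29.4 to 55.2 with 1 library left out, which was added after seeing the data. CANNTG, the wider E-box, was in 66.4% of the promoters of genes that rose and in 67.3% of all tested.

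With the replicate number as a block, 2590 genes were called in the ICM. The deviations of same-numbered ICM control and Max MO libraries had a correlation of -0.04, so the numbers do not pair them. The block changed no call among 152 named called genes. None of these genes turned its sign under any alternative run, 73 lost the call with the length trend removed, 55 with 6 ICM libraries and all 152 with 4 ICM libraries.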

Other observations

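Replication-dependent histone genes, whose RNA peaks in S phase and mostly lacks a poly(A) tail, are on no list above and were looked at after their values were seen. Of 51 tested, 15 rose with Max MO in the ICM and 0 fell, with a median difference of 1.39 on the log2(TPM + 1) scale, and 0 were called in the TE. Their summed TPM was 165 and 397 in the control ICM, 1677 and 1358 with Max MO in the ICM, 931 and 1047 with Mcrs1 MO in the ICM, and between 424 and 494 in the 4 TE libraries of control and Max MO. Hist1h2ap was at 26.1 and 64.0 TPM in the control ICM and at 398 and 388 with Max MO, and it passed in all 7 fits with 6 other Hist1h2a genes. These genes are near-identical copies, so reads can be shared among them. They are short, with a median transcript of 534 bases, and with the length trend removed 8 rose and 1 fell.

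The 45S ribosomal RNA precursor entry Rn45s was at 7809 and 8983 TPM in the control ICM and at 630 and 445 with Max MO (difference -3.98, limma adjusted p = 0.000371). It was at 8374 and 13013 TPM in the control TE and at 335 and 352 with Max MO there, and at 422 and 622 in the ICM with Mcrs1 MO. Thus both morpholinos differed from the controls in the same way for this RNA, which is not polyadenylated. Of 193 tested microRNA and small nucleolar RNA entries, most of which lie within host genes whose reads they may hold, 4 rose and 35 fell with Max MO in the ICM. Mir17hg, the host of a microRNA cluster known as a MYC target, was at 58.2 and 34.2 TPM in the control ICM and at 2.70 and 2.82 with Max MO (difference -3.60, limma adjusted p = 0.00132), and differed by -1.91 in the TE.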
